A study of Mus musculus with 45 samples.

Results

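The genes described here were 9 UDP-glucuronosyltransferases (Ugt1a1, Ugt1a5, Ugt1a6a, Ugt1a6b, Ugt1a7c, Ugt1a9, Ugt2b5, Ugt2b35 and Ugt2b1) and Ugdh, which encodes UDP-glucose 6-dehydrogenase. They were found by matching the 10 symbols to the Ensembl gene IDs of the count tables, which held 39179 IDs. All 10 were among the 17464 genes with more than 4 reads in at least 1 mouse, which were tested. The study asked how hepatic gene expression changed over a dose range of TCDD (the dioxin 2,3,7,8-tetrachlorodibenzo-p-dioxin), a persistent ligand of the aryl hydrocarbon receptor (AhR). RNA-Seq was run on total liver RNA of 45 female C57BL/6 mice, in 9 groups of 5. The vehicle group received sesame oil by gavage, and the other 8 groups received TCDD in sesame oil at 30, 10, 3, 1, 0.3, 0.1, 0.03 or 0.01 µg/kg. Gavage was repeated at intervals of 4 days over 28 days, starting in immature mice, so the tissue was whole liver after repeated exposure of young females. The sample descriptions also call the mice ovariectomized and the dosing daily, which the study's account of the animals does not mention, and this was not resolved. Replicates are individual mice numbered in the order of their records, with no pairing between groups.

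UDP-glucuronosyltransferases are membrane enzymes of the endoplasmic reticulum that attach glucuronic acid to lipophilic compounds such as bilirubin, steroids, phenols and drugs, which makes them water-soluble so that they can be exported into bile or urine. The sugar is supplied as UDP-glucuronic acid, made from UDP-glucose by Ugdh in the cytosol. Genes of the Ugt1a family lie in a single locus: each has its own promoter and first exon, which encodes the substrate-binding part, and all are spliced to the same downstream exons, which encode the part that binds UDP-glucuronic acid. Ugt2b genes are separate, complete genes in a cluster. Several Ugt1a genes are textbook targets of AhR, and of the receptors Nrf2, CAR and PXR.

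The sharing of exons sets what a gene-level count can hold for a Ugt1a gene. In the GENCODE M21 annotation of GRCm38, exons 2 to 5 began at the same bases in all 9 Ugt1a genes, on the plus strand. In Ugt1a1 they were chr1:88215044-88215175, chr1:88215795-88215882, chr1:88216138-88216357 and chr1:88218127-88218997, or 1311 bases in all. The annotated end lay further on in Ugt1a6b (chr1:88219003) and Ugt1a7c. A read on these 1311 bases fits more than 1 Ugt1a gene, and HTSeq puts such a read in its ambiguous counter and gives it to no gene. The counts of Ugt1a genes therefore rest on their first exons and, in Ugt1a6a and Ugt1a7c, on further exonic bases that no other gene holds. The main Ugt1a7c transcript has 1913 bases that no other gene holds, against 915 in its first exon. In this annotation Ugt1a7c runs to chr1:88220002, beyond the end of the shared exon 5. How its reads divide between the first exon and the other bases was not examined. The first exons span 913 bases in Ugt1a1, 892 in Ugt1a5, 954 in Ugt1a6a, 938 in Ugt1a6b, 915 in Ugt1a7c and 879 in Ugt1a9. The intron from that exon to exon 2 spans 2172 bases in Ugt1a1, but 48140 in Ugt1a5, 75712 in Ugt1a6a, 107244 in Ugt1a6b, 119065 in Ugt1a7c and 143365 in Ugt1a9. Only the Ugt1a1 intron was shorter than the longest intron of 15000 bases set for the alignment. Reads across that junction may therefore not have been aligned as spliced for the other 5 members of the locus. Whether annotated junctions were supplied to the aligner is not stated, and any loss was not measured.

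The junctions themselves show what the first exons do and do not share. Each line gives the last 25 bases of a first exon in lower case followed by the first 25 bases of exon 2 in capitals (chr1:88215044-88215068, plus strand, GRCm38), from the GENCODE M21 transcripts.
Ugt1a1: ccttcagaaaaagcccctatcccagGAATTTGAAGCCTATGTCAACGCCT
Ugt1a5: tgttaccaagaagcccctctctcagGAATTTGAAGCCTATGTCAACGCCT
Ugt1a6a: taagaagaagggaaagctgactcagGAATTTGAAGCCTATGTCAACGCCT
Ugt1a6b: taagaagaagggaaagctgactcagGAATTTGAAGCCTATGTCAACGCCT
Ugt1a7c: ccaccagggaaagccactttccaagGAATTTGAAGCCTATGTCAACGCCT
Ugt1a9: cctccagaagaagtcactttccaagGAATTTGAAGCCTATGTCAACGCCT
The lines of Ugt1a6a and Ugt1a6b are identical, and over the whole first exon these genes shared 96.5% of their bases. Ugt1a7c and Ugt1a9 shared 80.4%, and the other pairs of members of the locus shared 53 to 57.3%. Of all 50-base stretches, the length of the reads, 47.4% in the first exon of Ugt1a6a and 48.3% in that of Ugt1a6b occurred unchanged elsewhere in the transcripts. The share was 41.7% in Ugt2b5 and at most 7.95% in the other members. With up to 2 mismatches to another Ugt gene allowed, it was 75.4% in Ugt1a6a, 76.7% in Ugt1a6b and 78.6% in Ugt2b5 (closest mostly Ugt2b38). It was 33.4% in Ugt1a9 (closest mostly Ugt1a10), 16.1% in Ugt1a5 (Ugt1a2), 12.8% in Ugt1a7c (Ugt1a8) and at most 8.64% in the others. Values of Ugt1a6a, Ugt1a6b and Ugt2b5 are therefore uncertain, since reads could be lost or exchanged with a similar copy. To a lesser degree this holds for Ugt1a9, Ugt1a5 and Ugt1a7c. Ugt1a1 carries a further limit: only 385 of the 913 bases of its first exon lie in no other annotated gene, because Gm20528 on the opposite strand overlaps it, and in libraries that do not mark strand such reads cannot be told apart. Only 95 of the 954 bases of the Ugt1a6a first exon lie in no other gene, because a Ugt1a7c transcript in this annotation includes that exon.

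**Figure D1:**
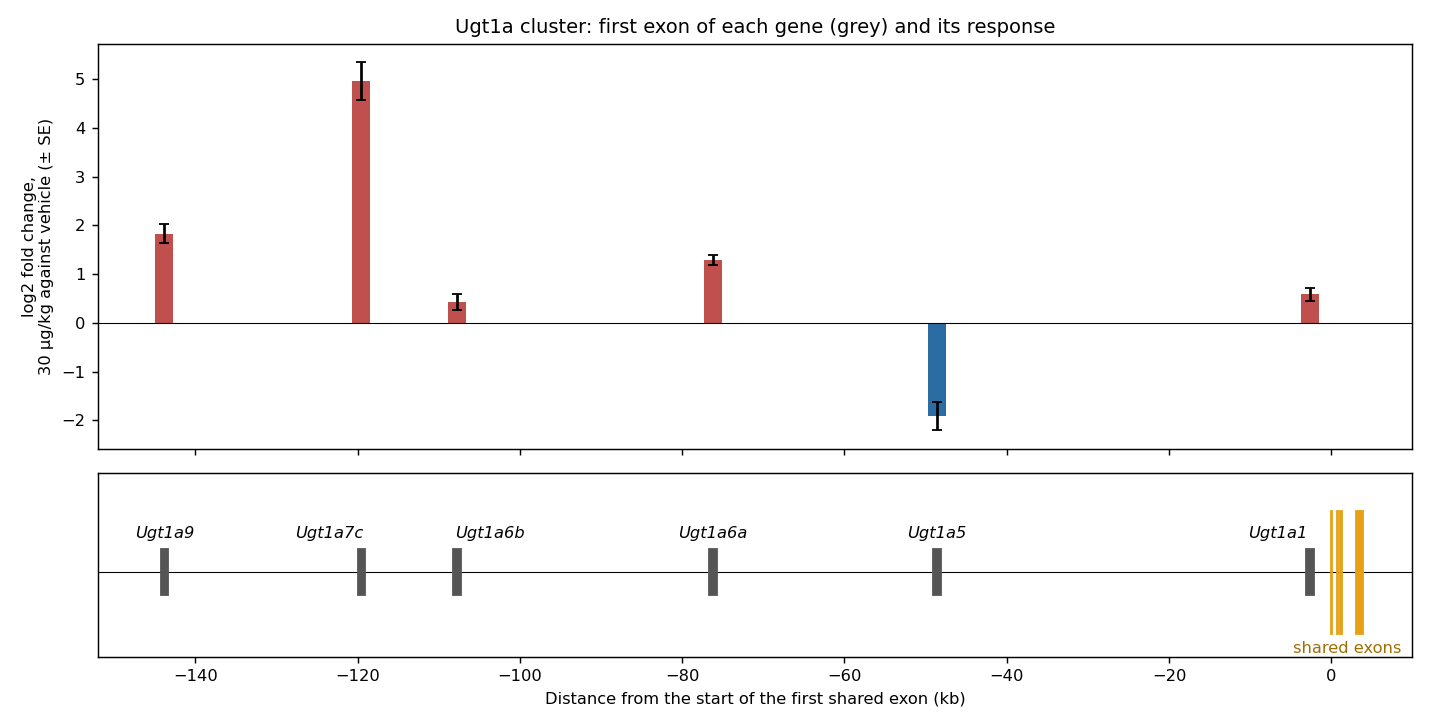
Lower panel, map of the locus with the first exons of the 6 Ugt1a genes (grey) and the shared exons (yellow) against the distance in kb from the start of exon 2. Upper panel, log2 fold change of each gene at 30 µg/kg against vehicle (edgeR, bars ± SE, red higher, blue lower). Ugt1a7c stands highest at 4.96, with Ugt1a5 alone below 0 at -1.91.

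The ambiguous counter covers all genes, so it limits but does not measure the uniquely aligned reads lost on the shared Ugt1a exons. Other losses lie outside it. Any junction reads that were not aligned are not in it, and alignments that were not unique have their own counter. That counter held 8231611 to 59345763 per mouse over all genes. In the vehicle group the ambiguous counter held 268077, 278079, 300837, 315918 and 336902 reads. At 0.01 µg/kg it held 620854, 310604, 388395, 298379 and 1085602 reads, and at 0.03 µg/kg 282453, 410756, 242448, 277864 and 221780 reads. At 0.1 µg/kg it held 201846, 292347, 309782, 346757 and 1035381 reads, and at 0.3 µg/kg 224102, 453790, 510255, 228289 and 333476 reads. These counts move with depth, so the shares given next are the comparison. At 1 µg/kg the counter held 241165, 711036, 256837, 286070 and 335366 reads, and at 3 µg/kg 272524, 844200, 506803, 282948 and 594368 reads. At 10 µg/kg it held 616838, 359478, 312609, 472196 and 619067 reads, and at 30 µg/kg 434983, 346925, 607267, 381430 and 274526 reads. As a share of gene plus ambiguous reads, the counter averaged 1.72% ± 0.0892 (SD, n = 5) for vehicle mice, against 2.25% ± 0.0678 (SD, n = 5) for the mice given 30 µg/kg. The vehicle mice lay between 1.61 and 1.80% and the 30 µg/kg mice between 2.15 and 2.31%, without overlap (exact permutation test, two-sided, p = 0.00794, the smallest this design allows). How much of that difference came from the Ugt1a exons was not tested.

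Depth was 11767284 to 56509899 reads on genes per mouse, and no replicate pair agreed within sampling noise. Cyp1a1, the classical AhR target, averaged 7.50 CPM (read counts scaled to each library's TMM-normalized size) in the vehicle group and 7627 CPM at 30 µg/kg. In the library of mouse 2 at 0.01 µg/kg, Xist was at 2.93 CPM against at least 1112 CPM in every other library, with no read on Y-linked genes anywhere. In mouse 5 at 0.01 µg/kg, 8 leukocyte markers summed to 481 CPM and Cyp1a1 was at 69.7 CPM, against 1.18 to 4.54 CPM in the other mice of that group and a mean of 47.9 CPM at 0.03 µg/kg. Without both libraries, the mean of Ugt2b35 at 0.01 µg/kg was 133 ± 20.1 CPM (SD, n = 3) against 129 ± 25.5 CPM (SD, n = 5) with them, that of Ugdh 272 ± 34.0 against 251.7 ± 40 CPM, and calls that were lost without them are named with the gene. The 6 hepatocyte markers summed to 111848 to 147787 CPM in vehicle mice and 102931 to 154754 CPM at 30 µg/kg, mostly from Alb. None of them was higher at 30 µg/kg and 4 were lower, among them Apoa1 (log2 -1.67) and Cps1 (log2 -0.99), where 29.6% of all tested genes were called. Of the 8 leukocyte markers, 3 were higher at 30 µg/kg and none lower, with sums of 92.4 to 157 CPM in vehicle mice and 95.4 to 245 CPM at 30 µg/kg. Of 5 stellate cell markers 2 were higher, with sums of 68.3 to 106 and 97.4 to 233 CPM, and of 4 endothelial markers 3 were higher, with sums of 96.1 to 125 and 113 to 190 CPM. The part of these cells in the results on the Ugt genes and Ugdh was not tested beyond a fit with the leukocyte sum as a covariate, and in bulk tissue fewer cells of a type and less RNA per cell cannot be told apart.

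**Figure D2:**
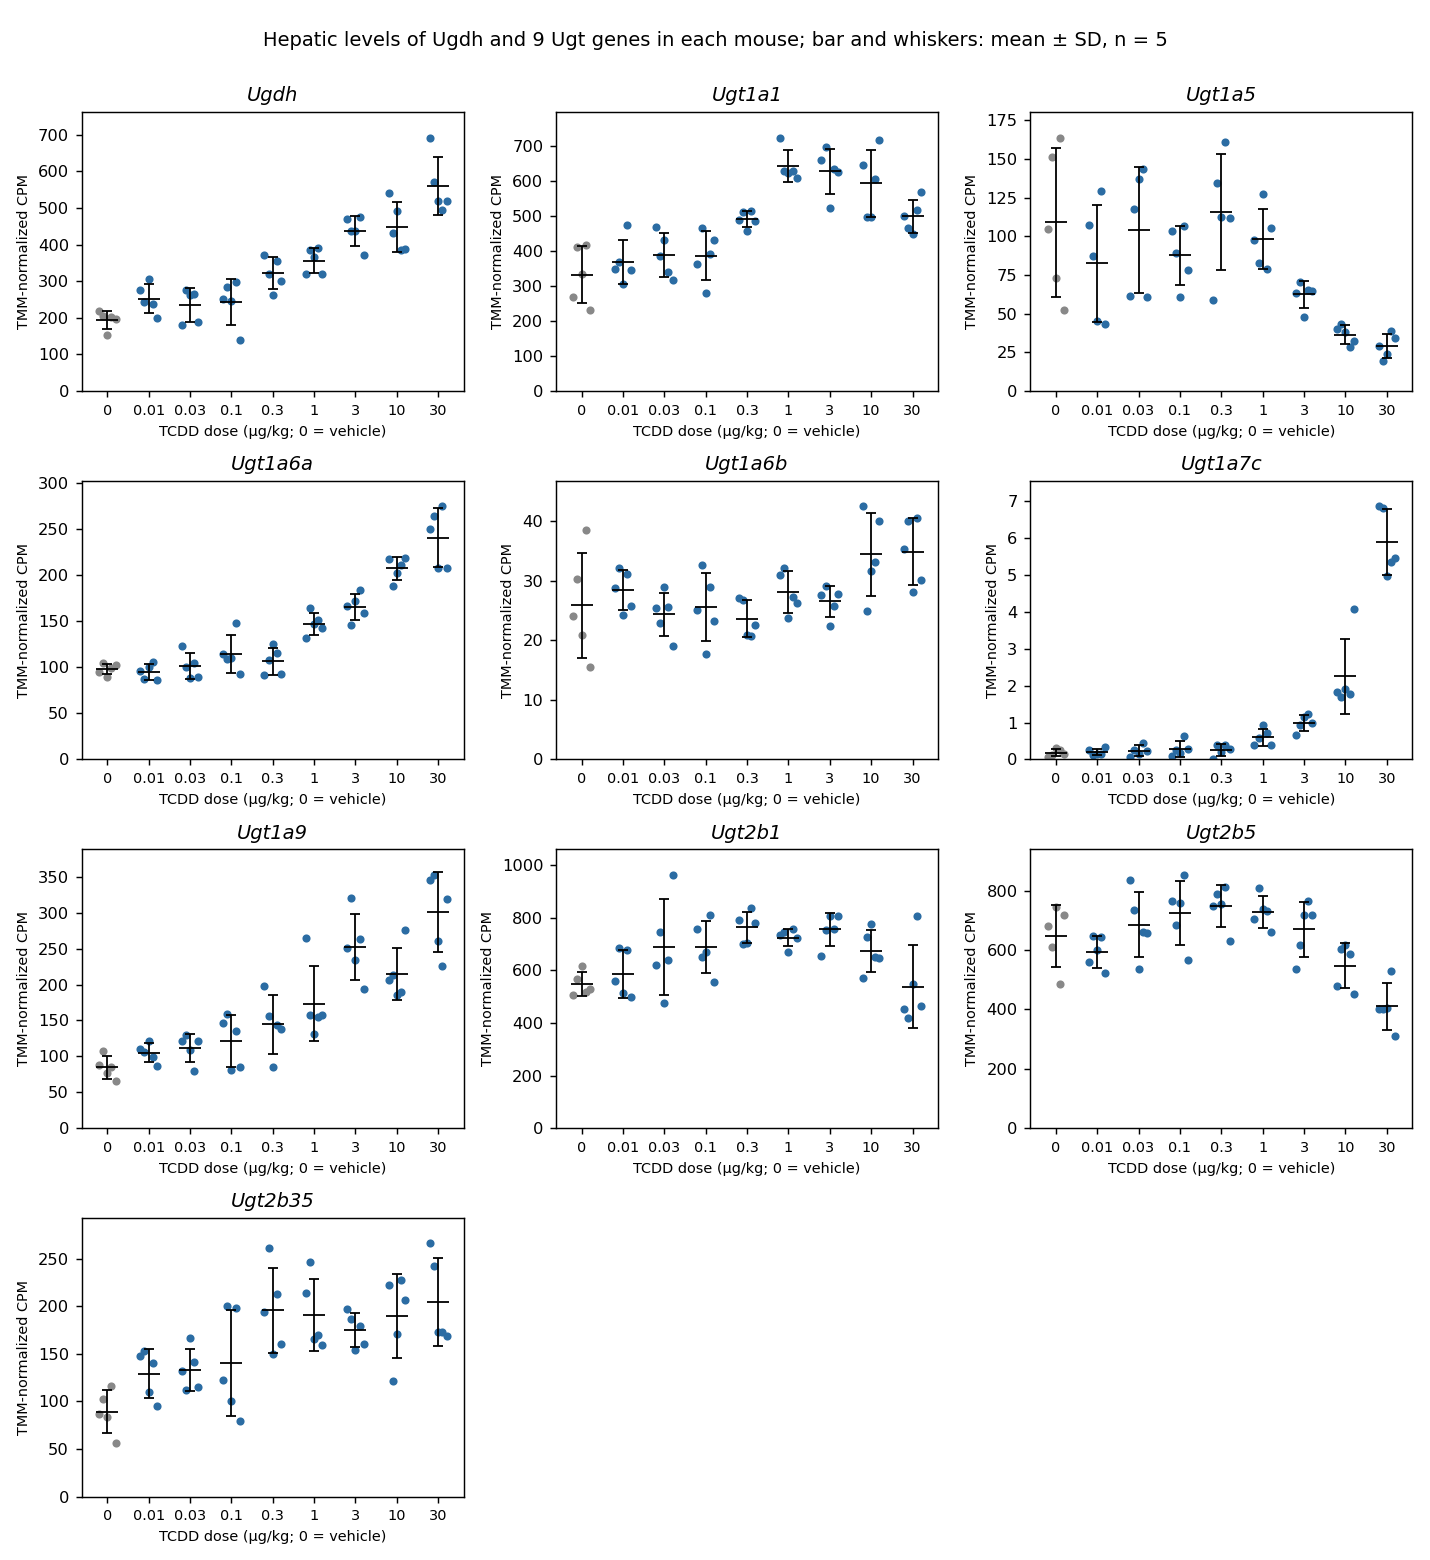
TMM-normalized CPM of the 10 genes against TCDD dose in µg/kg, with vehicle at the left; points are mice and whiskers the group mean ± SD (n = 5). At 30 µg/kg, 7 of the 10 genes had no mouse within the vehicle range. The share of all tested genes without such overlap was not determined.

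The number of genes of this group that differed from vehicle grew with dose. By edgeR's quasi-likelihood test with Benjamini-Hochberg adjustment, none of the 10 was called at 0.01, 0.03 or 0.1 µg/kg. Of all tested genes, 0%, 0.0573% and 0.0229% were called there. At an unadjusted p under 0.05 there were 2, 3 and 5 of the 10. The share of all genes under that unadjusted threshold was not determined, so these counts have no reference. DESeq2 called 0 of the 10 at each dose, with 35 of all genes at 0.01 and 78 at 0.03 µg/kg. At 0.3 µg/kg, 3 were called against 0.464% of all genes, and at 1 µg/kg 6 against 1.76%. At 3 µg/kg 7 were called against 7.54%, and at 10 µg/kg 7 against 15.9%. DESeq2 called 4, 6, 8, 7 and 9 of the 10 at 0.3, 1, 3, 10 and 30 µg/kg. The DESeq2 counts at 1 µg/kg and above have no reference, since the number of all genes it called is not given there. At 0.3 µg/kg DESeq2 called 141 of all genes, against 81 by edgeR. At 30 µg/kg, 9 of the 10 were called against 29.6% of all genes: 7 were higher, against 15.5% of all genes, and 2 were lower, against 14.1%. The higher genes were Ugt1a1, Ugt1a6a, Ugt1a6b, Ugt1a7c, Ugt1a9, Ugt2b35 and Ugdh, and the lower genes were Ugt1a5 and Ugt2b5. Requiring a fold change of at least 2 as well left 1, 3, 3, 6 and 6 of the 10 at 0.3, 1, 3, 10 and 30 µg/kg, against 0.229%, 0.882%, 2.97%, 5.55% and 11.4% of all genes. In the F test for any difference among the 9 groups all 10 passed, against 28.8% of all genes.

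**Figure D3:**
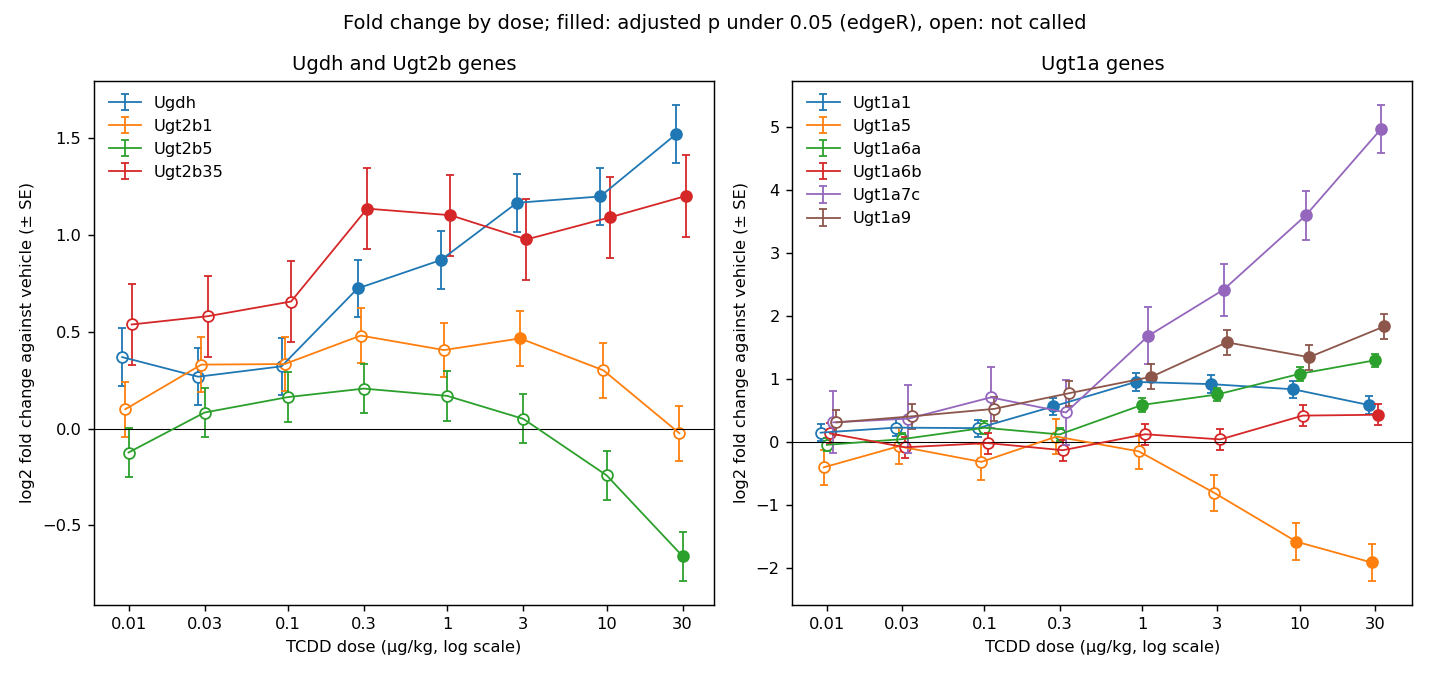
Log2 fold change against vehicle (edgeR, points ± SE) of the 10 genes over the 8 TCDD doses in µg/kg, with filled points where the adjusted p was under 0.05. Ugt1a7c reached the largest value of these genes, 4.96 at 30 µg/kg, and Ugt1a5 the lowest, -1.91.

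Ugdh, which makes the sugar donor that every UDP-glucuronosyltransferase uses, rose from 0.3 µg/kg onward. In vehicle mice it was at 218, 205, 153, 201 and 197 CPM (195 ± 25, SD, n = 5), and at 0.3 µg/kg at 372, 319.9, 263, 355 and 300.2 CPM (322 ± 43.4, SD, n = 5). At 30 µg/kg it was at 693, 571, 520.3, 495 and 520.3 CPM (559.8 ± 79.1, SD, n = 5). Every mouse from 0.3 µg/kg upward lay above every vehicle mouse. The rise on the log2 scale came to 0.72 ± 0.15 (SE) at 0.3 µg/kg, 0.87 at 1, 1.17 at 3, 1.2 at 10 and 1.52 ± 0.15 at 30 µg/kg, a 2.87-fold higher level there (edgeR quasi-likelihood, Benjamini-Hochberg adjusted p = 0.00907 at 0.3 and 1.05e-10 at 30 µg/kg). The exact permutation test of 30 µg/kg against vehicle gave p = 0.00794 (two-sided, n = 5 each). Leaving out vehicle mouse 3, the lowest, ended the call at 0.3 µg/kg (edgeR, adjusted p = 0.0601).

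Of the 9 genes of this group with a RefSeq promoter row, only those of Ugdh and Ugt1a5, both called at 30 µg/kg but in opposite directions, held GCGTG, the core letters of the dioxin response element, so the part of each that lies upstream of the annotated gene is shown, 5′ to 3′, with GCGTG, or CACGC where it lies on the opposite strand, in capitals (RefSeq, GRCm38.p6). The Ugdh stretch is chr5:65435950-65436092 on the minus strand and the Ugt1a5 stretch chr1:88165762-88166011 on the plus strand.
Ugdh: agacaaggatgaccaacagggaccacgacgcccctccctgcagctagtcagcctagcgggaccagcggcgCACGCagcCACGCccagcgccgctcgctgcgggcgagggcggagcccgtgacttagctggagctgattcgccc
Ugt1a5: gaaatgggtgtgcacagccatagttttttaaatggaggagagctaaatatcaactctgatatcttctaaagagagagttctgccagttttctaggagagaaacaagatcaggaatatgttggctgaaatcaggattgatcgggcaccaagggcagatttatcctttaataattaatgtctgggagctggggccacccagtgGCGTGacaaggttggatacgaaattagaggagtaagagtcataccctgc
On either strand, the Ugdh window of 250 bases before to 50 after the RefSeq start held GCGTG 3 times, at 180, 172 and 94 bases upstream of that start, the last lying outside the stretch shown. It also held 2 matches of TGACNNNGC, the core letters of the antioxidant response element that Nrf2 binds, at 132 and 94 bases upstream, the second overlapping a GCGTG. Of all 32851 promoter windows, 32.4% held at least 1 GCGTG, 3.91% at least 3, 12.4% at least 1 TGACNNNGC and 0.986% at least 2. The windows of Ugt1a1, Ugt1a6a, Ugt1a7c, Ugt1a9, Ugt2b1, Ugt2b35 and Ugt2b5 held neither motif, and that of Ugt1a6b was not examined.

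Among the Ugt1a genes, Ugt1a1 (chr1:88211959-88218997), the bilirubin-conjugating enzyme, was the most abundant and the earliest to be called. It was at 270.0, 411, 336, 416 and 231 CPM in vehicle mice (333 ± 82.6, SD, n = 5), at 488, 512, 458, 515 and 486 CPM at 0.3 µg/kg, and at 725, 629, 625, 629 and 611 CPM at 1 µg/kg (644 ± 46.1, SD, n = 5). At 30 µg/kg it was at 499, 468, 448, 516 and 568 CPM (499.9 ± 46.6, SD, n = 5). No mouse from 0.3 µg/kg upward lay within the vehicle range, and the highest group mean was that at 1 µg/kg, with 628 ± 64.3 CPM at 3 and 594 ± 95.5 CPM at 10 µg/kg. Its log2 fold changes were 0.56 ± 0.14 (SE) at 0.3, 0.95 ± 0.14 at 1, 0.92 ± 0.14 at 3, 0.83 ± 0.14 at 10 and 0.59 ± 0.14 at 30 µg/kg (edgeR, adjusted p = 0.0418, 8.36e-06, 7.92e-06, 1.62e-05 and 0.000947). The call at 0.3 µg/kg was narrow: it was lost without the 2 libraries at 0.01 µg/kg that stood apart (edgeR, adjusted p = 0.0684) and on leaving out any of 29 of the 45 mice (edgeR, adjusted p up to 0.237). No step between neighbouring doses was called for Ugt1a1, so the lower mean at 30 than at 1 µg/kg is given as values.

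Ugt1a6a and Ugt1a6b, which encode phenol-conjugating enzymes, have near-identical first exons but were measured at different levels. The size of that gap depends on the length used, since exonic bases held by no other gene number 2142 in Ugt1a6a and 938 in Ugt1a6b. Per kilobase of these bases, vehicle mice were at 45.8 ± 2.78 and 27.6 ± 9.46 CPM (SD, n = 5 each). Ugt1a6a was at 94.9, 104, 89.5, 99.0 and 102 CPM in vehicle mice (98 ± 5.95, SD, n = 5), at 132, 164, 146, 152 and 143 CPM at 1 µg/kg, and at 249, 264, 207, 275 and 208 CPM at 30 µg/kg (240.5 ± 31.5, SD, n = 5). Every mouse at 1 µg/kg and above lay over the vehicle range, and Ugt1a6a rose at 1, 3, 10 and 30 µg/kg, with log2 fold changes of 0.59 ± 0.11 (SE), 0.75, 1.08 and 1.29 ± 0.11, or 2.45-fold at 30 µg/kg (edgeR, adjusted p = 0.000428, 2.01e-06, 2.03e-10 and 7.05e-13). Ugt1a6b was at 24.1, 30.4, 21, 38.6 and 15.6 CPM in vehicle mice (25.9 ± 8.87, SD, n = 5) and at 35.4, 40.1, 28.1, 40.6 and 30.2 CPM at 30 µg/kg (34.9 ± 5.65, SD, n = 5), so the groups overlapped. It was called at 30 µg/kg by a narrow margin, with a log2 fold change of 0.43 ± 0.17 (SE) and an adjusted p of 0.0455 (edgeR). The call was lost without the 2 libraries at 0.01 µg/kg (edgeR, adjusted p = 0.0601) and on leaving out any of 28 of the 45 mice (up to 0.191), and the exact permutation test gave p = 0.0952 (two-sided, n = 5 each). The ratio of Ugt1a6a to Ugt1a6b within a mouse was higher at 30 µg/kg than in vehicle mice by 0.80 on the log2 scale (exact permutation p = 0.00794, n = 5 each).

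Ugt1a7c and Ugt1a9, which have the most distant first exons of the 6, both rose. Ugt1a7c was nearly absent from vehicle liver, with 1, 2, 5, 4 and 3 reads (0.181 ± 0.0955 CPM, SD, n = 5), and had 5, 21, 13, 11 and 7 reads at 1 µg/kg. At 10 µg/kg it had 56, 32, 30, 41 and 116 reads, and at 30 µg/kg 152, 119, 140, 96 and 68 reads, or 6.85, 6.81, 4.95, 5.35 and 5.45 CPM (5.88 ± 0.886, SD, n = 5). All mice at 1 µg/kg and above lay over the vehicle range in CPM, and its log2 fold change was 1.68 ± 0.45 (SE) at 1, 2.41 ± 0.41 at 3, 3.59 ± 0.39 at 10 and 4.96 ± 0.38 at 30 µg/kg (edgeR, adjusted p = 0.0371, 8.07e-05, 2.86e-09 and 8.95e-14). With so few vehicle reads, the 31.2-fold value at 30 µg/kg carries a wide counting error. Its count can also take in reads beyond the shared exon 5, which were not separated from those on its first exon. The call at 1 µg/kg was lost with the leukocyte sum as a covariate (log2 1.62, edgeR adjusted p = 0.0744), with a value close to that without it, and on leaving out vehicle mouse 1, 2, 4 or 5, or mouse 2, 3 or 4 at 1 µg/kg (edgeR, adjusted p up to 0.118). Ugt1a9 was at 88.5, 107, 76.9, 85.2 and 65.0 CPM in vehicle mice (84.5 ± 15.5, SD, n = 5), at 264, 157, 131, 155 and 158 CPM at 1 µg/kg, and at 346, 353, 261, 225 and 319 CPM at 30 µg/kg (301 ± 55.6, SD, n = 5). From 1 µg/kg upward no mouse overlapped the vehicle group. For Ugt1a9 the change on the log2 scale was 1.03 ± 0.20 (SE) at 1, 1.58 ± 0.20 at 3, 1.34 ± 0.20 at 10 and 1.83 ± 0.20 at 30 µg/kg, or 3.56-fold there (edgeR, adjusted p = 0.000969, 1.91e-07, 1.99e-06 and 1.21e-09). At 0.3 µg/kg its value was 0.77 ± 0.20, with an adjusted p of 0.0583 by edgeR, and DESeq2 called it.

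Of the 6 Ugt1a genes described here, only Ugt1a5 was called lower at any dose. It was at 105, 151, 73.2, 164 and 52.5 CPM in vehicle mice (109 ± 48.1, SD, n = 5), a wide spread, at 40.1, 43.2, 38.3, 28.5 and 32 CPM at 10 µg/kg and at 29, 19.1, 24.1, 38.7 and 34.2 CPM at 30 µg/kg (29 ± 7.78, SD, n = 5). At both doses every mouse lay below the lowest vehicle mouse. Ugt1a5 fell at 10 and 30 µg/kg, with log2 fold changes of -1.58 ± 0.29 and -1.91 ± 0.29 (SE), 3.76-fold lower at 30 µg/kg (edgeR, adjusted p = 9.07e-05 and 2.08e-06). At 3 µg/kg its value was -0.81 ± 0.28, with an adjusted p of 0.0733 by edgeR, and DESeq2 called it.

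The make-up of the reads counted on the 9 genes of the locus shifted accordingly. Their summed level was 665 ± 152 CPM in vehicle mice and 1117 ± 81.6 CPM at 30 µg/kg (SD, n = 5 each). Ugt1a1 held 49.9% ± 3.64 of these reads in vehicle mice, 58.3% at 1 µg/kg and 44.8% ± 3.24 at 30 µg/kg (SD, n = 5). Ugt1a9 held 12.9% ± 1.62 and 26.9% ± 3.99, and Ugt1a6a 15.4% ± 3.74 and 21.6% ± 2.57, in the vehicle and 30 µg/kg groups. Ugt1a5 held 15.8% ± 4.00 in vehicle mice and 2.60% ± 0.674 at 30 µg/kg, while Ugt1a7c held only 0.0280% and 0.526%. Per kilobase of first exon, the order at 30 µg/kg was Ugt1a1 (547 CPM per kb), Ugt1a9 (342), Ugt1a6a (252.1), Ugt1a6b (37.2), Ugt1a5 (32.5) and Ugt1a7c (6.43), where in vehicle mice it was Ugt1a1 (365), Ugt1a5 (122), Ugt1a6a (103), Ugt1a9 (96.2), Ugt1a6b (27.6) and Ugt1a7c (0.198). In vehicle mice Ugt1a5 and Ugt1a9 were not separated beyond the spread between mice, nor were Ugt1a6b and Ugt1a5 at 30 µg/kg. The places of Ugt1a1, Ugt1a6a and Ugt1a7c depend on the length used. Per kilobase of exonic sequence held by no other gene, Ugt1a1 was at 865 CPM in vehicle mice and 1298 CPM at 30 µg/kg, Ugt1a6a at 45.8 ± 2.78 and 112 ± 14.7 CPM, and Ugt1a7c at 0.0945 and 3.07 CPM (SD, n = 5 each), while Ugt1a9 kept 96.2 ± 17.6 and 342 ± 63.3 CPM (SD, n = 5 each).

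**Figure D4:**
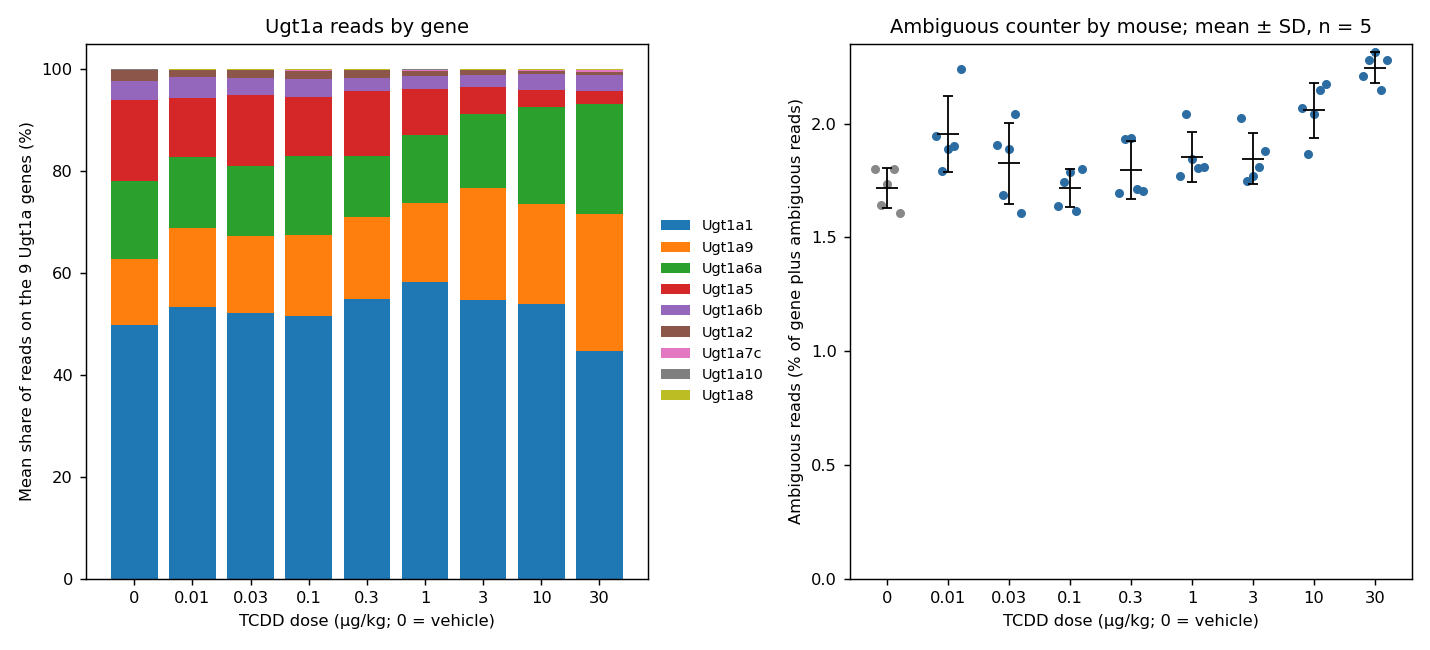
Left, share of reads on the 9 Ugt1a genes held by each (percent, stacked group means); right, ambiguous reads of each mouse as a percent of gene plus ambiguous reads (points, with mean ± SD, n = 5); both against TCDD dose in µg/kg. The share of Ugt1a5 was 15.8% in the vehicle group and 2.60% at 30 µg/kg, and the ambiguous share was 1.72% and 2.25%.

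The ratios between genes were compared within each mouse at 30 µg/kg and in vehicle, for the 15 pairs of the 6 Ugt1a genes and the 3 pairs of Ugt2b genes. After adjustment over the 18 pairs, 17 ratios differed. The pairs share genes, so 1 strongly changed gene enters several ratios and the count is not one of independent results. The share among pairs of other genes was not determined. The exception was Ugt1a1 to Ugt1a6b, whose ratio was 0.14 higher on the log2 scale (exact permutation p = 0.421, n = 5 each). The largest change was in Ugt1a5 to Ugt1a7c, at -6.74, followed by Ugt1a6b to Ugt1a7c at -4.43 and Ugt1a1 to Ugt1a7c at -4.29. Among pairs without Ugt1a7c it was largest in Ugt1a5 to Ugt1a9 at -3.66 and Ugt1a5 to Ugt1a6a at -3.11 (exact permutation p = 0.00794 and adjusted p = 0.0110 for each, n = 5 each). The ratio of Ugt1a1 to Ugt1a6a changed by -0.67 (exact permutation p = 0.0159, adjusted p = 0.0179, n = 5 each), and that of Ugt1a6a to Ugt1a9 was -0.54 with an adjusted p of 0.0420 by exact permutation (n = 5 each), which was lost on leaving out any of 9 of the 10 mice (adjusted p up to 0.0840).

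The 3 Ugt2b genes on chromosome 5, whose products conjugate steroids and other endogenous and foreign compounds, each followed a different course. Ugt2b35 (chr5:87000860-87013275) was at 86.5, 103, 83.5, 116 and 56.1 CPM in vehicle mice (89.0 ± 22.6, SD, n = 5), at 194, 262, 149.8, 213 and 161 CPM at 0.3 µg/kg (196 ± 44.7, SD, n = 5) and at 266, 243, 173, 173 and 169 CPM at 30 µg/kg (205 ± 46.1, SD, n = 5). All mice at 0.3 µg/kg and above lay over the vehicle range, with group means of 175 to 205 CPM. Ugt2b35 rose at each of these doses, with log2 fold changes of 1.14 ± 0.21 (SE) at 0.3, 1.10 at 1, 0.98 at 3, 1.09 at 10 and 1.2 ± 0.21 at 30 µg/kg, or 2.30-fold there (edgeR, adjusted p = 0.00286, 0.00103, 0.00176, 0.000193 and 2.12e-05). At 0.01, 0.03 and 0.1 µg/kg the values were 0.54, 0.58 and 0.66, none of which passed.

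Ugt2b5 (chr5:87124960-87140318) was at 681, 609, 744, 486 and 718 CPM in vehicle mice (648 ± 103, SD, n = 5) and at 403, 400.1, 405, 529.8 and 311 CPM at 30 µg/kg (409.7 ± 77.9, SD, n = 5). At 30 µg/kg 4 of the 5 mice lay below the lowest vehicle mouse. It fell at 30 µg/kg only, with a log2 fold change of -0.66 ± 0.13 (SE) and an adjusted p of 9.31e-05 (edgeR), 1.58-fold lower, and at 10 µg/kg its value was -0.24 ± 0.13 with an adjusted p of 0.205. Ugt2b1 (chr5:86916638-86926530) was at 507, 566, 619, 518 and 528 CPM in vehicle mice (548 ± 45.5, SD, n = 5), at 654, 756, 806, 759 and 807 CPM at 3 µg/kg (757 ± 62.2, SD, n = 5) and at 452, 419, 550.2, 808 and 463 CPM at 30 µg/kg (538 ± 158, SD, n = 5). The groups at 0.3, 1 and 3 µg/kg did not overlap the vehicle group, while that at 30 µg/kg spanned it. Of these, only 3 µg/kg was called for Ugt2b1, with a log2 fold change of 0.47 ± 0.14 (SE) and an adjusted p of 0.0340 (edgeR), against 0.140 at 0.3 and 0.158 at 1 µg/kg. The call was lost on leaving out vehicle mouse 1, 4 or 5, or any but mouse 1 at 3 µg/kg (edgeR, adjusted p up to 0.0841). At 30 µg/kg the value was -0.02 ± 0.14 (SE; edgeR, adjusted p = 0.919), and 2 SE either side reached from -0.31 to 0.26. Within mice, the ratio of Ugt2b5 to Ugt2b35 differed between 30 µg/kg and vehicle by -1.88 on the log2 scale, that of Ugt2b5 to Ugt2b1 by -0.60 and that of Ugt2b35 to Ugt2b1 by 1.28 (exact permutation p = 0.00794, 0.0159 and 0.0159, n = 5 each). Over whole transcripts, identity was 87.5% between Ugt2b5 and Ugt2b35, 73.7% between Ugt2b1 and Ugt2b5, and 69.5% between Ugt2b1 and Ugt2b35.

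The doses at which these genes moved were placed side by side by fitting a Hill curve to the log2 CPM of the 45 mice for the 7 genes called at 30 µg/kg and at least 1 other dose, with the fitted ED50 (the dose at the midpoint of the fitted change) given with its range on leaving out each mouse. Ugt2b35 was lowest at 0.0243 µg/kg (range 0.0171 to 0.0428), below the first dose at which it was called. Without the 2 libraries at 0.01 µg/kg that stood apart it was also 0.0243 µg/kg. Leaving them out moved Ugt1a6a from 2.36 to 2.69 µg/kg and Ugt1a7c from 12.9 to 12.3 µg/kg, and no other fitted gene moved. Ugt1a1 followed at 0.224 µg/kg (0.151 to 0.279), then Ugt1a9 at 1.12 (0.696 to 2.26), Ugdh at 1.4 (0.793 to 2.46) and Ugt1a6a at 2.36 µg/kg (2.07 to 3.34). A curve that runs to a plateau cannot follow the Ugt1a1 means, which were highest at 1 µg/kg. The share of variance fitted (R2) ran from 0.546 in Ugt2b35 to 0.894 in Ugt1a6a, with 0.673 in Ugt1a1. Ugt1a5, which fell, came at 4.53 µg/kg (3.65 to 5.17) and Ugt1a7c at 12.9 µg/kg (11.8 to 43.7), so that its fitted plateau lay beyond the doses given. The leave-out ranges of Ugt1a9, Ugdh and Ugt1a6a overlapped, so their order is not resolved, while those of Ugt2b35, Ugt1a1, Ugt1a5 and Ugt1a7c did not overlap any other. These ranges are not confidence intervals, so the places of these genes are not established either. Ugt1a7c with a prior count of 0.5 (6.71 µg/kg) and Ugt2b35 with library size only (0.0467 µg/kg) lay outside their ranges. The upper end of the range came from leaving out mouse 1 at 1 µg/kg for Ugt1a9, mouse 4 at 30 µg/kg for Ugdh, vehicle mouse 5 for Ugt2b35 and mouse 1 at 0.3 µg/kg for Ugt1a7c. Between neighbouring doses only Ugt1a7c was called, from 3 to 10 µg/kg (log2 1.18 ± 0.29 (SE), edgeR, adjusted p = 0.0336, where 0.784% of all genes were called) and from 10 to 30 µg/kg (1.37 ± 0.27, adjusted p = 0.00449, 0.613% of all genes). The first of these calls was lost on leaving out any of the 5 mice at 3 µg/kg, or mouse 5 at 10 µg/kg. The other steps gave 0 calls by edgeR among the 10 genes. Of all genes, 0% (0.01 to 0.03), 0.0115% (0.03 to 0.1), 0.0458% (0.1 to 0.3), 0.115% (0.3 to 1) and 0.178% (1 to 3 µg/kg) were called. At an unadjusted p under 0.05 there were 0, 0, 3, 3 and 3 of the 10, and the share of all genes there was not determined.

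The other Ugt genes of the lists drawn up for the pathway did not rise as a group. Of 11 tested at 30 µg/kg, where 15.5% of all genes were higher and 14.1% lower, 1 rose, 6 fell and 4 did not pass, with a median log2 fold change of -0.42 against 0.02 over all genes. Ugt1a8 rose by 2.25 on the log2 scale on at most 9 reads. Ugt1a2, whose first exon lies in the same locus, fell by 1.30, Ugt1a10 by 1.42 and Ugt3a1 by 1.08 on the log2 scale. Of 13 genes for the supply and use of UDP-glucuronic acid, 6 rose, 2 fell and 5 did not pass (median 0.17). Slc35d1, the transporter that carries UDP-glucuronic acid into the endoplasmic reticulum, rose by 1.03, from 156 to 319 CPM in group means, while Ugp2, which makes the UDP-glucose that Ugdh uses, fell by 1.16, from 852 to 381 CPM. Hexokinase genes Hk1 and Hk2 rose by 1.44 and 1.64, while the nucleotide pyrophosphatase gene Enpp3 fell by 1.94 on the log2 scale.

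The following counts at 30 µg/kg stand against the same 29.6% of all genes called, and those of several lists are near or under it. Of 7 genes for export and hydrolysis of conjugates, 2 rose and 1 fell: the exporter Abcc4 rose by 2.01, Abcc1 by 0.91, and the uptake transporter Slco1b2 fell by 0.90 on the log2 scale. In the ascorbate branch that starts from glucuronic acid, Akr1a1 and Gulo rose by 0.83 and 0.59, and Rgn fell by 1.03. Of 4 bilirubin genes, 1, the heme-degrading Hmox1, rose by 1.01. Of 10 receptor and regulator genes, Nfe2l2, which encodes Nrf2, alone passed, rising by 1.24, and Ahr itself was at -0.11 without passing. All 6 AhR targets of the list rose, among them Cyp1a1 by 9.98, while 4 of 8 Nrf2 targets rose and the other 4 did not pass. Of 4 CAR and PXR targets 1 rose and 1 fell, and of 5 PPARα targets 2 passed, both lower, of which Cyp4a14 fell by 4.23 on the log2 scale.

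**Figure D5:**
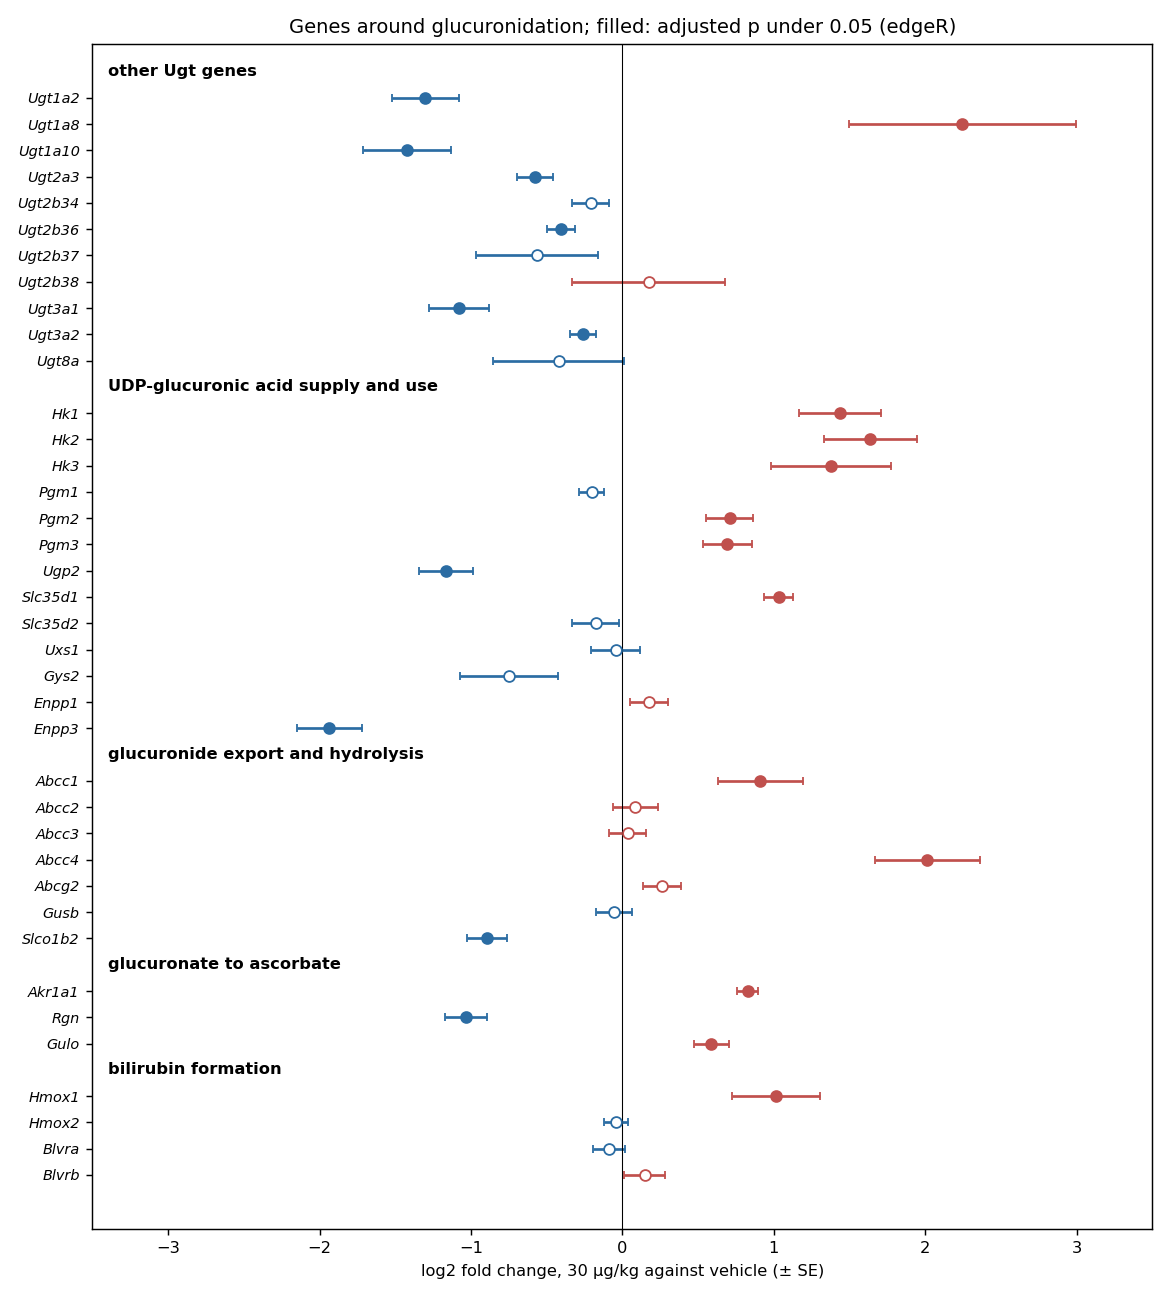
Log2 fold change at 30 µg/kg against vehicle (edgeR, points ± SE) of the other Ugt genes and of the genes for supply and use of UDP-glucuronic acid, export and hydrolysis of glucuronides, ascorbate synthesis and bilirubin formation, with filled points where the adjusted p was under 0.05. Slc35d1 lies at 1.03, Abcc4 at 2.01, Ugp2 at -1.16 and Enpp3 at -1.94.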

How the data were processed

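Liver RNA-Seq counts of 45 mice were analysed, 5 in each of 9 groups taken from the sample labels. The deposited values are raw read counts per Ensembl gene, 1 table per mouse. The authors made these counts from single-end reads of 50 bases, trimmed with Cutadapt and the FASTX toolkit, aligned to GRCm38 (Ensembl release 74) with Bowtie and TopHat 1.4.1 (longest intron 15000 bases) and counted with HTSeq 0.6.1 in intersection-nonempty mode, which leaves out reads that fit several genes; SAMtools 0.1.19 and FastQC 0.11.2 were also used. The strand setting is not given in the sources used here, and the TruSeq kit used does not mark strand. HTSeq's counters (no feature, ambiguous and others) stayed out of library sizes and tests; reads with no feature came to 10.2 to 20.9% of gene reads.

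Counts were normalized by TMM and tested with edgeR 4.0.16 (quasi-likelihood, R 4.3.3), with all 45 mice in a single fit, genes with more than 4 reads in any mouse, and Benjamini-Hochberg adjustment over the 17464 genes within each comparison; an adjusted p under 0.05 was called. DESeq2 1.42.0, other scalings, filters, an all-dose adjustment and each mouse left out were alternatives. Two-sided exact permutation tests (SciPy 1.17.1) over mice served single values and ratios within a mouse (counts plus 0.5), and Hill curves were fitted on log2 values (prior count 2). The edgeR and Hill steps were tested on simulated data. The simulated Hill curves did not reach an ED50 as low as that of Ugt2b35 or as high as that of Ugt1a7c. Exon structure and junctions came from GENCODE M21 (GRCm38), a later annotation than the one counted, and promoters from RefSeq. All 10 genes and the genes called at 30 µg/kg in the pathway lists could be named. Results on 2 further genes are not reported here, and the list counts leave them out. The genes and the lists were chosen with earlier results of these data known. With 5 mice a group, p-values set a difference against the spread between mice, which edgeR estimated from all 45 mice. The permutation tests used only the mice compared.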

Additional observations from a re-analysis of the deposited data

Results flagged for a closer look

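In each group of 5 mice, the highest or lowest value was flagged when its gap to the nearest other value, over the range of the group, passed Dixon's critical value of 0.71. Of 99 groups looked at, 4 were flagged, where chance flags about 1 in 20. Mouse 1 at 1 µg/kg was far above the rest of its group in Ugt1a1, at 725 CPM against 611 to 629 CPM, and in Ugt1a9, at 264 CPM against 131 to 158 CPM. Mouse 5 at 10 µg/kg was at 4.07 CPM of Ugt1a7c (116 reads) against 1.69 to 1.90 CPM in the other 4. The ambiguous share of mouse 2 at 1 µg/kg was 2.04% (711036 reads) against 1.77 to 1.85% in the other 4.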

How the results depend on the processing

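With a fold change of at least 2 required as well, 1 of the 10 genes was called at 0.3, 3 at 1 and 3 at 3 µg/kg, in place of 3, 6 and 7. At 0.3 µg/kg the count was 5 with the adjustment over all doses, 5 with library size only and 5 with the leukocyte covariate (chosen after seeing the data). Of all 17464 genes, 251, 97 and 84 were called in those settings. On leaving out each mouse the count ran from 1 (without vehicle mouse 3) to 4, with 40 to 86 of all genes called. From 0.3 to 1 µg/kg the count was 1 with edgeR's filterByExpr and 1 with the covariate, with 22 of all genes called in each. On leaving out each mouse it was 0 to 1. It was 0 to 1 from 3 to 10 µg/kg and 1 to 3 from 10 to 30 µg/kg (3 without mouse 4 at 30 µg/kg). The ED50 of Ugt1a7c was 6.71 µg/kg with a prior count of 0.5, and with library size only that of Ugt2b35 was 0.0467, that of Ugdh 3.06, that of Ugt1a9 2.26 and that of Ugt1a7c 24.8 µg/kg. On leaving out each mouse the ED50 ran from 11.8 to 43.7 (Ugt1a7c), 0.696 to 2.26 (Ugt1a9), 0.0171 to 0.0428 (Ugt2b35) and 0.793 to 2.46 µg/kg (Ugdh). The causes were not tested. Ugt2b1 at 30 µg/kg, at -0.02 and never called, was 0.18 with library size only, 0.10 with the covariate and -0.22 to 0.048 on leaving out each mouse. Ugt1a6b at 30 µg/kg lost its call with the adjustment over all doses (adjusted p = 0.134 by edgeR), with no filter on low counts (0.0659), in a fit of the 2 groups alone (0.103) and without the 2 libraries at 0.01 µg/kg (0.0601). Ugt1a1 at 0.3 µg/kg lost its call with no filter (0.0662), in a fit of the 2 groups alone (0.224) and without the 2 libraries (0.0684).

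Library size alone in place of TMM moved the median log2 fold change of all genes at 30 µg/kg by 0.214 and the share of calls that were higher from 52.3 to 80.3%. Over all genes, calls went from 0 to 176 with the adjustment over all doses and to 35 by DESeq2 at 0.01 µg/kg, from 10 to 237 and 78 at 0.03, from 4 to 46 at 0.1 (all-dose adjustment), from 81 to 251 and 141 at 0.3, and from 307 to 479 at 1 µg/kg (all-dose adjustment). No paired analysis was possible because the labels give no replicate numbers, only an order of records. Few reads limit Ugt1a7c below 1 µg/kg.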

Other observations

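Over the 8 doses, the genes whose log2 fold changes lay closest to those of Ugdh, among 13599 genes with a mean of at least 10 reads, were Prdm1, Fam129b and Hk1, with root mean square differences from 0.112 (Prdm1) to 0.126 (Hk1). Those closest to Ugt1a6a were Dkk3 (0.0776), Ces1b and Aldh16a1, and those closest to Ugt1a1 were Pard3bos3 (0.137), Mlkl and Fzd7. For Ugt1a9 they were Tgtp2 (0.124), Eml4 and Parvg, and those near Ugt2b35 included D630045J12Rik (0.0881) and Camkk2. The nearest gene to Ugt1a7c, Prr15, was at 0.404, with Mmp13 and Serpinb6a next. These are descriptions of likeness in these 45 mice, with no test, and all doses share the same 5 vehicle mice.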
